A study of Mus musculus with 2 samples.

Results

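Interferon-stimulated genes were followed by their UMIs, the counted mRNA molecules, across the cell classes of liver tumors from hKO and WT mice. The set was a fixed list of 39 gene symbols, of which 38 matched a feature among the 32285 in both libraries; Mx2 was not analysed here. The hKO library came from C57BL/6J mice with a hepatocyte knockout of Fabp5, made with a tamoxifen-inducible Cre under the albumin promoter (Alb-CRE-ER), and the WT library from their littermates. Both received tamoxifen at 6 to 8 weeks of age, 5 injections of 100 mg/kg at 3-day intervals after 16 h of fasting. A CD-HFD diet began 2 weeks after the last injection and lasted 15 months. Each library pooled 2 to 3 hepatocellular carcinomas, so each group is 1 sample with no spread between animals. The Cre is hepatocyte-directed, so cells of other classes are not its target, and with 1 library a group the genotype and the library cannot be told apart in any class.

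Interferons are secreted proteins that cells release on sensing viral or misplaced nucleic acid, and that lymphocytes release on activation. Type I interferon signals through Ifnar1 and Ifnar2 to a complex that holds Stat2 and Irf9 and binds the interferon-stimulated response element, whereas interferon gamma signals through Ifngr1 and Ifngr2 to gamma activated sites. The genes switched on this way encode RNA sensors, antiviral effectors and inducible GTPases, and in liver and its tumors they are used as a readout of inflammation.

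Promoters of 31 of the 39 listed genes were matched in RefSeq (GRCm38.p6), as windows of 300 bases that run from 250 before to 50 after the start. The core of the response element, read as GAAA, any 2 bases and GAAA on either strand with overlapping matches counted, was in the promoters of 19 of the 31, which is 61.3%, against 3.99% of 27025 gene symbols. The gamma site, TTCNNNGAA, whose letters are the same on both strands, was in 12 of the 31, or 38.7%, against 9.55% of the symbols. All 6 matched GTPase genes held the response element core, as did 2 of 3 IFIT genes and 2 of 4 oligoadenylate synthetase genes. Irf7, Irf9, Oasl1, Oasl2, Cmpk2, Ifi44 and Xaf1 held neither set of letters in this window.

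The promoters printed are those of genes that the results below turn on, with every match to either motif in capitals. They cover Isg15 (chr4:156200769-156201068 on the minus strand), Rsad2 (chr12:26456403-26456702 on the minus strand), Irgm1 (chr11:48871371-48871670 on the minus strand), Ifit3 (chr19:34583279-34583578 on the plus strand), Oas1a (chr5:120907476-120907775 on the minus strand), Bst2 (chr8:71537423-71537722 on the minus strand) and Irf1 (chr11:53769764-53770063 on the plus strand). In Isg15 3 overlapping cores span bases -78 to -57 from the start, and in Irgm1 2 overlapping cores span bases -30 to -15. Ifit3 has 2 separate cores on the opposite strand, at -156 to -147 and -122 to -113. In Bst2 a gamma site at -136 to -128 overlaps the first of 2 cores, and Irf1 has a gamma site at -90 to -82 and no core.
Isg15: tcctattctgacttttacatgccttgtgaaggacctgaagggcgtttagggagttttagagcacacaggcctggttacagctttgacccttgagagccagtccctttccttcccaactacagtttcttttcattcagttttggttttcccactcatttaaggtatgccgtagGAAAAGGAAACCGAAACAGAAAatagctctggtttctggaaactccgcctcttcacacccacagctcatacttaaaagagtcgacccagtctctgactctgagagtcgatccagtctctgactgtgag
Rsad2: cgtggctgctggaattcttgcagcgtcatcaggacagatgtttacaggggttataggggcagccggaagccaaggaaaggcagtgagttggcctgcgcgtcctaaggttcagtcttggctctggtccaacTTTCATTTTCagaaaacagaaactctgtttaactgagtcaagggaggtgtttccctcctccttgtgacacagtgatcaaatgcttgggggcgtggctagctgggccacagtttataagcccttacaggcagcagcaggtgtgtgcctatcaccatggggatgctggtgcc
Irgm1: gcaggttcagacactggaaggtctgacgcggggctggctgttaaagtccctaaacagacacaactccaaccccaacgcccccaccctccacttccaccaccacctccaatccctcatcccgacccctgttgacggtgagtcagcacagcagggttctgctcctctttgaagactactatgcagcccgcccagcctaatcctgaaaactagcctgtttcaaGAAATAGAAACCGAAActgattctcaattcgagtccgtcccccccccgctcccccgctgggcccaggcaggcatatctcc
Ifit3: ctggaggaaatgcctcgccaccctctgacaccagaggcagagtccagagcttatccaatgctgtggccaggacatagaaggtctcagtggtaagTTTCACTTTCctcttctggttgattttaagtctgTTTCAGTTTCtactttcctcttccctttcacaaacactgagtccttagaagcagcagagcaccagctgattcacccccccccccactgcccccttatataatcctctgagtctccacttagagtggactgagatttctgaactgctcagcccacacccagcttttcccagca
Oas1a: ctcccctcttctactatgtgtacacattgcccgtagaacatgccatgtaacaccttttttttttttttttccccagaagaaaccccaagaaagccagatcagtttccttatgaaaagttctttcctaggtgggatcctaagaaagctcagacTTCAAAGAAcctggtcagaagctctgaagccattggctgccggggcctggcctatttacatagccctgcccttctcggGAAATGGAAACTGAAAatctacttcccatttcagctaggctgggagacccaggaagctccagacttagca
Bst2: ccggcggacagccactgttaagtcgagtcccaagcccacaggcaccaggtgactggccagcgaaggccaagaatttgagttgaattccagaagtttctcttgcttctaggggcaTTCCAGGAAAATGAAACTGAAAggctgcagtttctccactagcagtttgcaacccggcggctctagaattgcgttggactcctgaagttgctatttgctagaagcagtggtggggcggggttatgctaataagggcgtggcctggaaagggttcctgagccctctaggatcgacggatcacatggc
Irf1: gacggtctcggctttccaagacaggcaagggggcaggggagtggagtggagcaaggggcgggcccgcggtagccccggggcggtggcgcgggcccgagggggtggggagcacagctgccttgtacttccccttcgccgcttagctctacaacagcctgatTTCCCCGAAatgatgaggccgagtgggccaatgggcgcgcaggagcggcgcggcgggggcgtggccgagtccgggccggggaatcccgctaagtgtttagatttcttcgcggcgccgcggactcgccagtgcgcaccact

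The deposited matrices held 18657 hKO and 14289 WT barcodes with 68010317 and 58772330 UMIs, and 73 barcodes occurred in both. After filters 10402 hKO cells (median 3642.5 UMIs) and 9459 WT cells (median 3822 UMIs) remained. Of their classes 11 reached 100 cells in both libraries and were compared, each named by markers as "like" a cell type, with the interferon genes kept out of the clustering. Fabp5 itself was at 13.7 CPM (UMIs per 1000000 UMIs of the class; 51 UMIs) in hKO hepatocyte-like cells and at 101 CPM (80 UMIs) in WT hepatocyte-like cells. RNA of hepatocytes in other classes, which marks free RNA, was higher in hKO, for instance 0.602% of UMIs in hKO T-like cells against 0.246% in WT T-like cells. Mitochondrial UMIs were also higher, at 8.30% in hKO and 6.52% in WT T-like cells. B-, T-, macrophage- and hepatocyte-like cells lay mostly in different clusters in the libraries; the largest B-like cluster held 94.8% of the class in hKO and another held 96.3% in WT.

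Summed over the 38 genes, the level was highest in monocyte-like cells and lowest in B-like cells in both libraries. Monocyte-like cells had 6286 CPM in hKO and 6283 CPM in WT. Plasmacytoid dendritic-like cells had 4011 CPM in hKO and 5366 CPM in WT, and B-like cells 1192 CPM in hKO and 1376 CPM in WT. Endothelial-, conventional dendritic-, neutrophil- and macrophage-like cells lay between, at 2923 to 3784 CPM in hKO and 3261 to 3904 CPM in WT.

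**Figure D1:**
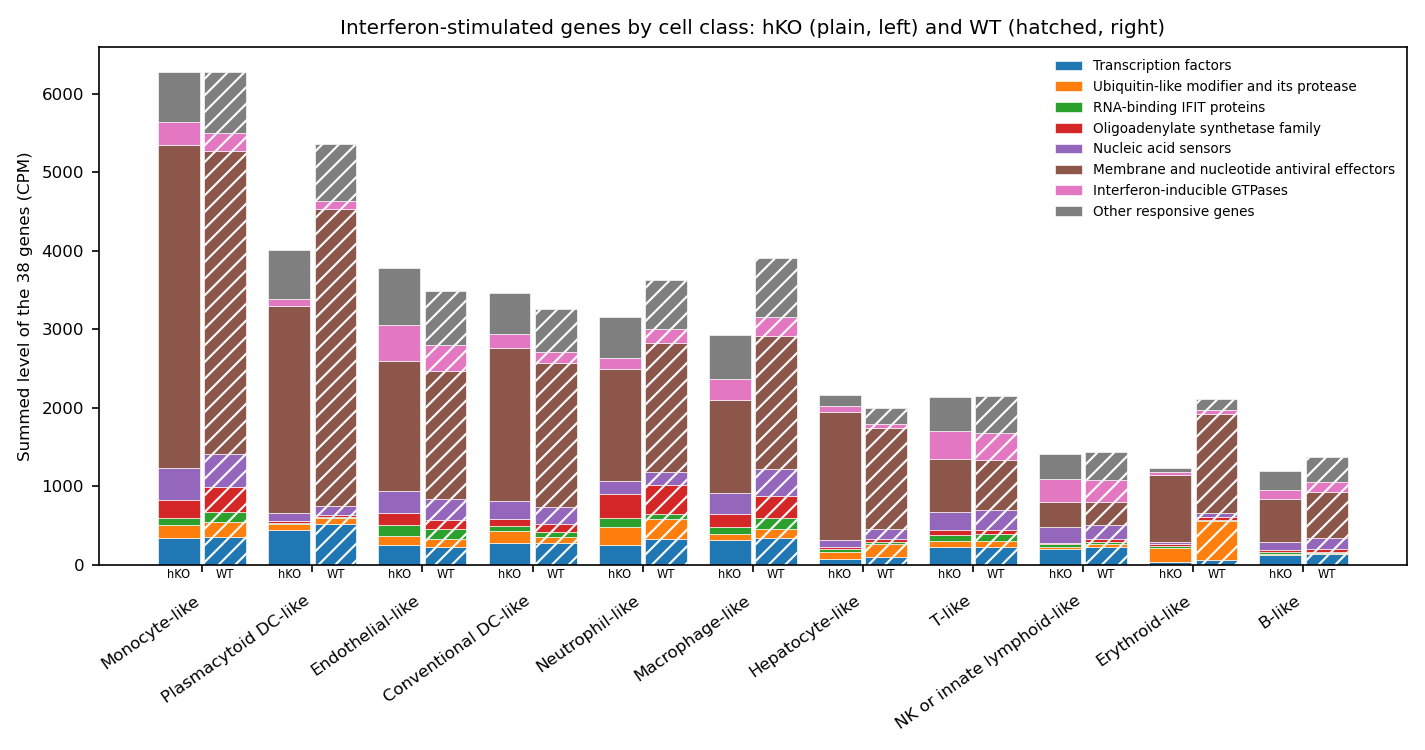
Summed CPM of the 38 interferon-stimulated genes (vertical axis) in each of 11 cell classes, hKO plain and on the left of each pair, WT hatched and on the right, with colors for the 8 role groups. Monocyte-like cells stand at 6286 CPM in hKO and 6283 CPM in WT, and the group that holds Ifitm3 and Bst2 makes up most of their bars.

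Ifitm3 and Bst2 weighed most in these sums, since a sum of UMIs follows the abundant genes. They took 51.4% of the set's UMIs in hKO and 48.2% in WT monocyte-like cells, and 60.8% in hKO and 65.8% in WT plasmacytoid dendritic-like cells. Ifitm3, a membrane protein that blocks fusion of incoming viruses, was at 3057 CPM in hKO and 2780 CPM in WT monocyte-like cells, the highest of any class in both. Bst2, or tetherin, which holds budding virus at the cell surface and is a known surface marker of plasmacytoid dendritic cells in mice, was at 2369 CPM in hKO and 3479 CPM in WT plasmacytoid dendritic-like cells. Those cells were near the bottom for Ifitm3, at 68.7 CPM in hKO and 51.4 CPM in WT. Without both genes, monocyte-like cells still had the highest sums, 3052 CPM in hKO and 3252 CPM in WT.

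The class with the highest level was the same in both libraries for 23 of the 38 genes, and for 8 of these it was the monocyte-like class. Samhd1, which breaks down the nucleotides that viruses need, was at 802 CPM in hKO and 712 CPM in WT monocyte-like cells. Trim30a, a tripartite-motif protein of the mouse, peaked in plasmacytoid dendritic-like cells with 460 CPM in hKO and 537 CPM in WT. Stat2, of the complex that binds the response element, had its peak there too, with 139 CPM in hKO and 157 CPM in WT. The 3 IFIT genes, which bind viral RNA, summed to 14.3 CPM in hKO and 11.7 CPM in WT there. Most of that was Ifit2, while Ifit1 and Ifit3 were close to absent. Ifit1 had 1.49 CPM in hKO and 0.489 CPM in WT plasmacytoid dendritic-like cells, and Ifit3 0.559 CPM in hKO and 2.45 CPM in WT.

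Other genes marked other classes. Oasl2, a synthetase-like protein and the family member with the most UMIs, was highest in neutrophil-like cells at 118 CPM in hKO and 191 CPM in WT. Ifi44, a protein of little known function, was highest in endothelial-like cells at 149 CPM in hKO and 93.9 CPM in WT. Gbp7, a guanylate-binding GTPase that acts on vacuoles of intracellular pathogens, was at 116 CPM in hKO and 107 CPM in WT endothelial-like cells, and at 86.2 CPM in hKO and 112 CPM in WT T-like cells. Ddx58, which encodes the RNA sensor RIG-I, was at 92.6 CPM in hKO and 76.1 CPM in WT NK- or innate lymphoid-like cells, but at 3.17 CPM in hKO and 4.89 CPM in WT plasmacytoid dendritic-like cells. Ifit2 reached 52.5 CPM in hKO and 50.2 CPM in WT endothelial-like cells, and 47.6 CPM in hKO and 63.8 CPM in WT macrophage-like cells. Irf1, a transcription factor with a gamma site in its promoter, ranged over classes from 3.82 to 149 CPM in hKO and from 13.5 to 208 CPM in WT.

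**Figure D2:**
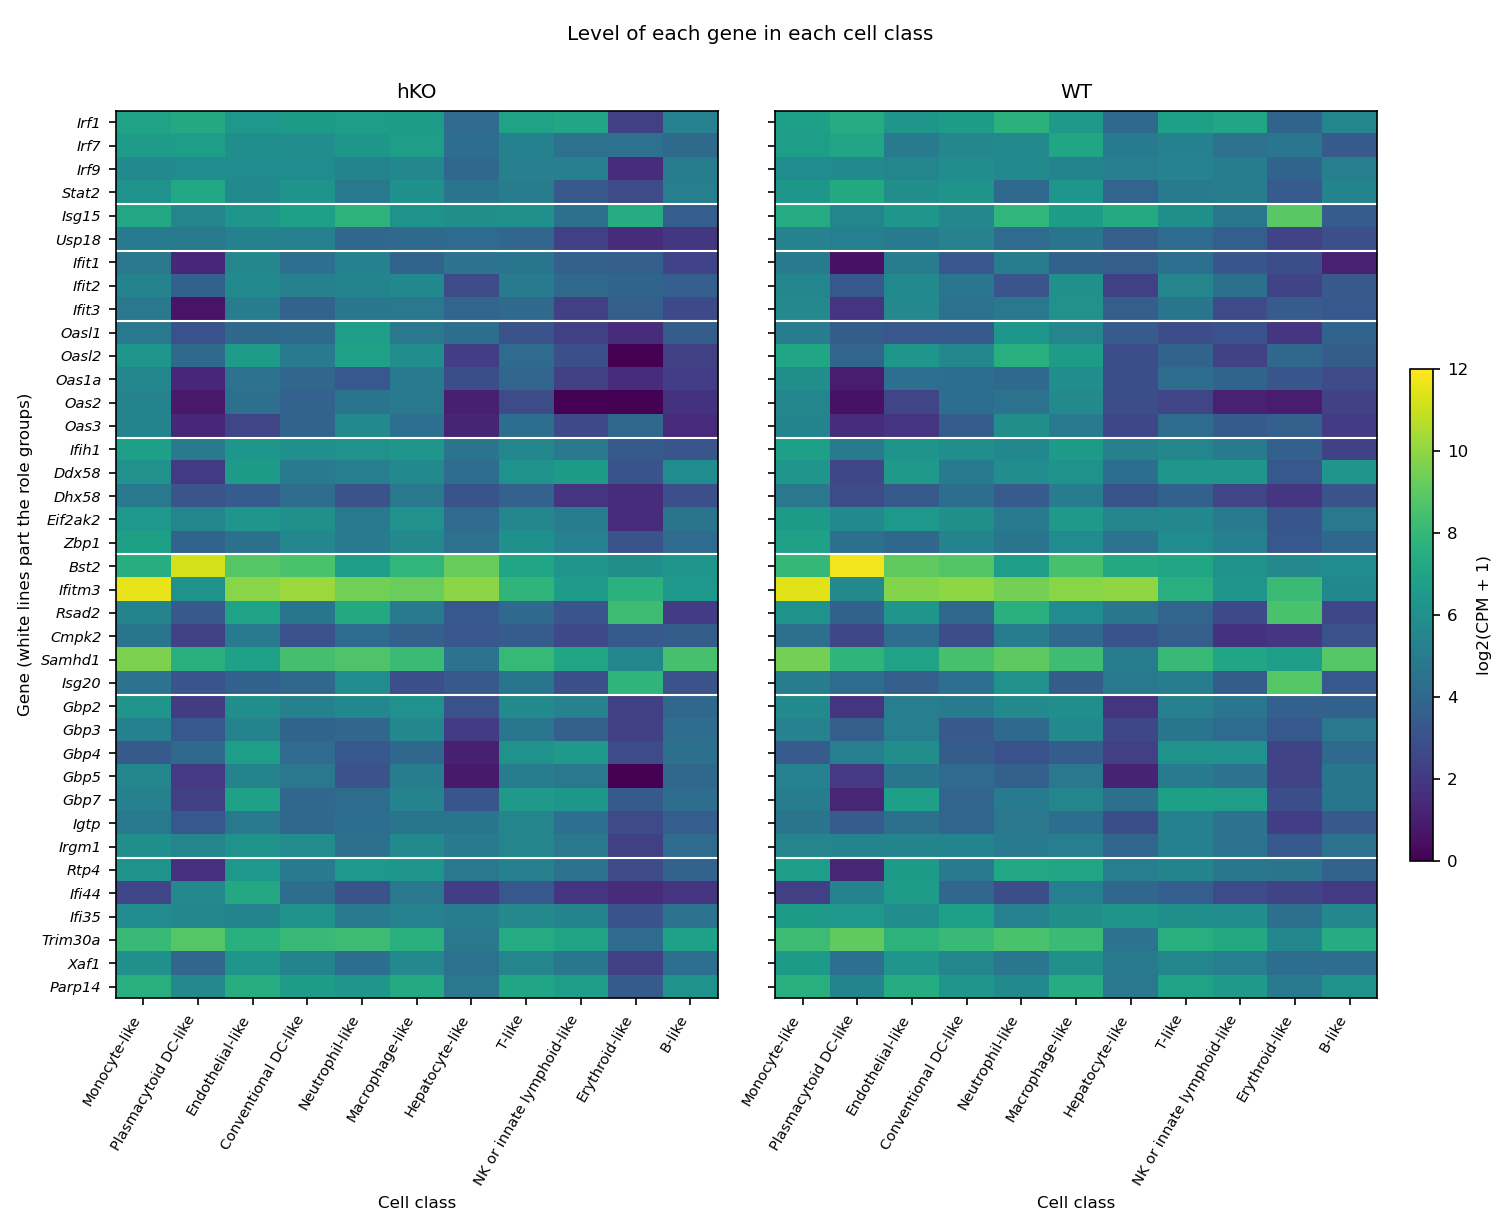
Level of each of the 38 genes (rows, grouped by role) in each of 11 cell classes (columns), as log2(CPM + 1), hKO in the left panel and WT in the right. Ifitm3 in monocyte-like cells and Bst2 in plasmacytoid dendritic-like cells are the brightest squares of both panels, and the IFIT and OAS rows are dark in plasmacytoid dendritic-like cells.

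Few of these genes were seen at 50 CPM in erythroid-like cells, but 3 were high there. Rsad2, or viperin, a radical enzyme that blocks viral replication, was at 310 CPM in hKO and 372 CPM in WT, the highest of any class in both. Isg20, a ribonuclease, was at 233 CPM in hKO and 459 CPM in WT, against 54.4 CPM in hKO and 65.7 CPM in WT neutrophil-like cells, the next class. Isg15, a ubiquitin-like modifier, was at 172 CPM in hKO and 486 CPM in WT erythroid-like cells. With every cell thinned to 1000 UMIs, 22.6% of hKO and 23.1% of WT erythroid-like cells held an Rsad2 UMI, against 0.322% of hKO and 0.469% of WT B-like cells. The unthinned shares were 41.6% in hKO and 51.1% in WT erythroid-like cells, at medians of 3106 and 4169.5 UMIs per cell; 2 hKO and 8 WT cells were too shallow to thin.

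Cells with many antiviral UMIs were few, at most 4.08% of any class in hKO and 3.55% in WT. A count of 10 antiviral genes (Ifit1, Ifit2, Ifit3, Isg15, Rsad2, Usp18, Oasl1, Cmpk2, Rtp4 and Irf7), chosen after the data were seen, was used per cell thinned to 1000 UMIs. In neutrophil-like cells 10 of 245 hKO cells (4.08%, exact 95% interval 1.97 to 7.38) and 17 of 479 WT cells (3.55%, 2.08 to 5.62) held 5 or more such UMIs. In monocyte-like cells it was 27 of 1144 hKO cells (2.36%, 1.56 to 3.42) and 15 of 617 WT cells (2.43%, 1.37 to 3.98). No B-like cell of 1244 in hKO and 2 of 1279 in WT reached it, and a count of 0 in 1244 allows up to 0.296% by the same interval. These intervals cover counting error within 1 library and say nothing of animals.

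The hKO and WT libraries were then compared class by class. With 1 library a group no test between groups can be made, so a rule of size was used. A gene was past it with 50 CPM or more in either library, a log2 ratio of hKO over WT beyond 1 or -1, and 0 outside the 95% interval of the ratio's counting error. Of 418 pairs of gene and class, 152 had the level to be judged. Of these 2 were past the rule upward and 6 downward, or 4 and 2 with libraries scaled by the median ratio of all genes. Past it in no class were 32 of the 38 genes. Among these Usp18, Ifit1, Dhx58, Cmpk2, Gbp5 and Igtp had the level in no class, so they could not pass. All genes of a class past the same rule were 4.66% in macrophage-like, 3.7% in conventional dendritic-like, 3.52% in monocyte-like, 3.64% in plasmacytoid dendritic-like, 5.63% in endothelial-like, 4.95% in T-like, 4.87% in B-like, 5.23% in NK- or innate lymphoid-like and 12.9% in neutrophil-like cells. They were 53.5% in erythroid-like and 53.1% in hepatocyte-like cells. Of the 8 pairs 5 lay in those classes. The other 3 were 1 of 14 genes judged in conventional dendritic-like and 2 of 25 in macrophage-like cells, and the remaining 7 classes had 0. The median log2 ratio of all genes with the level in both libraries ran from -0.44 in hepatocyte-like to -0.062 in macrophage-like cells, and the set's sum lay above that median in 6 of 11 classes.

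The background was uneven by direction. Upward it was 3.45% of genes in conventional dendritic-like, 3.13% in monocyte-like, 2.78% in macrophage-like, 3.12% in plasmacytoid dendritic-like, 3.75% in endothelial-like, 4.1% in T-like, 4.29% in B-like, 3.81% in NK- or innate lymphoid-like, 9.59% in neutrophil-like, 20.4% in hepatocyte-like and 21.1% in erythroid-like cells. Downward it was 0.249% in conventional dendritic-like, 0.395% in monocyte-like, 1.88% in macrophage-like, 0.52% in plasmacytoid dendritic-like, 1.88% in endothelial-like, 0.856% in T-like, 0.587% in B-like, 1.43% in NK- or innate lymphoid-like, 3.29% in neutrophil-like, 32.7% in hepatocyte-like and 32.4% in erythroid-like cells. All 9 classes other than these last 2 had more genes past the rule upward than downward, while the 3 pairs of the set past it in those 9 classes were 1 upward and 2 downward.

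**Figure D3:**
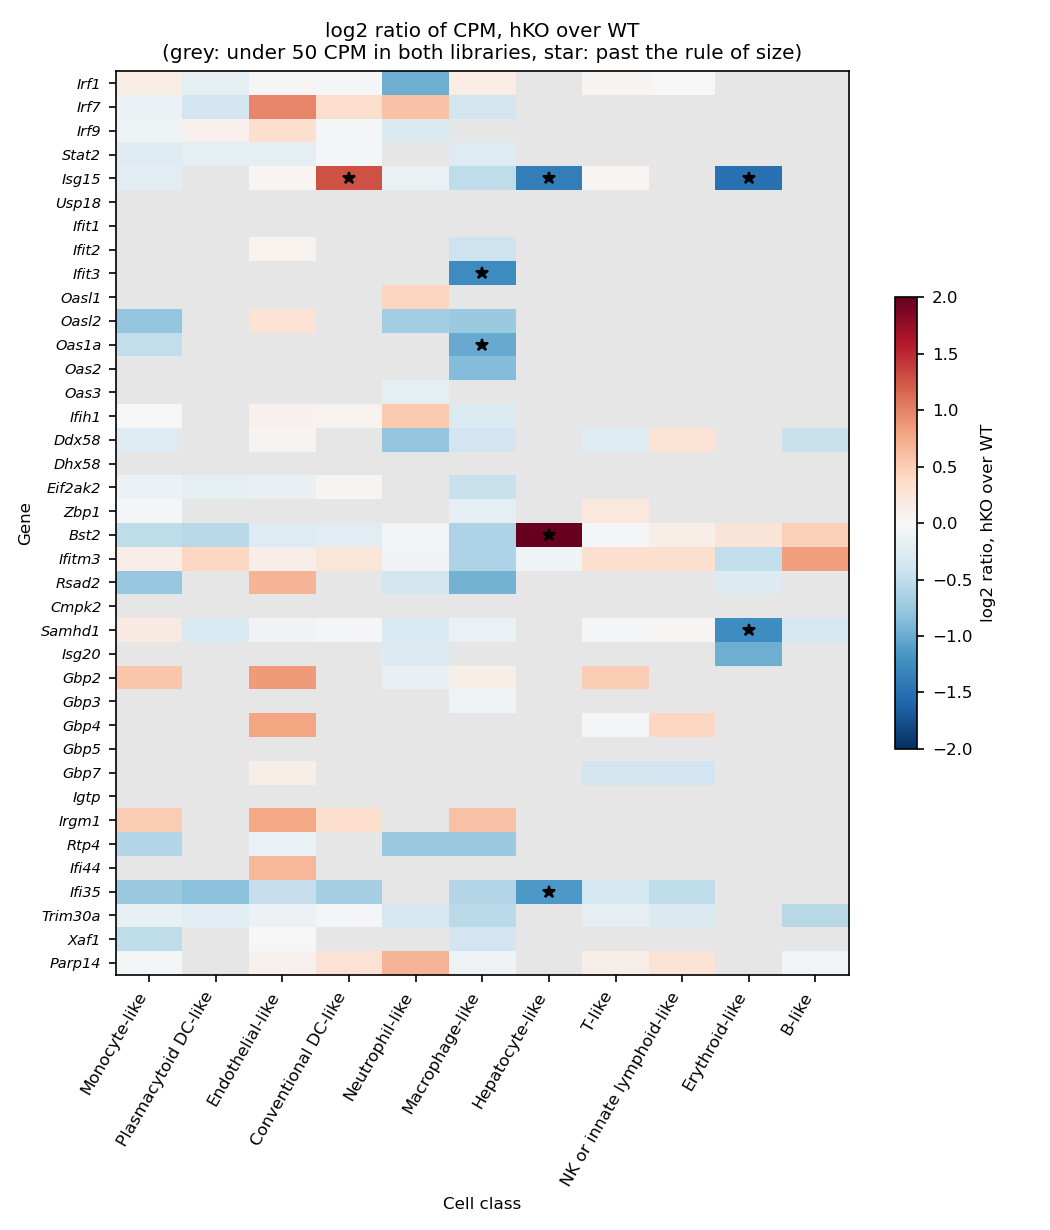
log2 ratio of CPM, hKO over WT, for each of the 38 genes (rows) in each of 11 cell classes (columns); grey squares had under 50 CPM in both libraries and stars mark pairs past the rule of size. Of 152 colored squares 2 carry a star with a positive ratio and 6 a star with a negative one, and the macrophage-like column is mostly blue.

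Macrophage-like cells had the lower level in hKO over much of the set. Its sum was 2923 CPM in hKO and 3904 CPM in WT, a log2 ratio of -0.42 (95% counting interval -0.44 to -0.39), and the median over the 15 genes with 50 CPM in both libraries was -0.39, beside -0.062 over all such genes of the class. Ifit3 was at 27.3 CPM in hKO (176 UMIs) and 65.3 CPM in WT (463 UMIs), a log2 ratio of -1.26. Oas1a, which makes the messenger that activates RNase L, was at 28.6 CPM in hKO (184 UMIs) and 57.2 CPM in WT (405 UMIs), a log2 ratio of -1.001. These were the pairs of this class past the rule, and Oas1a missed it in all 6 alternatives run (-1.09 to -0.90, the lowest with a level under 50 CPM). Reads of Ifit3 and Ifit3b, and of Oas1a and Oas1g, can be split between near-identical copies, so each value is uncertain to that extent.

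The macrophage-like class is made of clusters that the libraries filled unequally, which touches this result. Cluster 4 held 45.9% of the hKO class, and cluster 10 held 43.1% of the WT class. Within the 3 clusters with at least 50 cells in each library the summed log2 ratio was -0.29 (cluster 4), -0.19 (cluster 10) and -0.13 (cluster 15). Ifit3 was past the rule in none of the 3 clusters, with ratios of -1.10, -0.13 and -0.86 in the same clusters, the first short of the level of 50 CPM, and Oas1a was past it in cluster 4 with -1.05. Irgm1, 1 of 21 genes judged, was past it upward in cluster 10, beside 14.3% of all genes there upward and 3.41% downward. In cluster 4, with 19 genes judged, 2.16% of all genes were past it upward and 0.971% downward. The cause of the difference between the pooled and the within-cluster values was not tested. Among Kupffer-like cells, the resident macrophages of liver (201 hKO and 1209 WT cells), the sum was 3909 CPM in hKO and 4211 CPM in WT, a log2 ratio of -0.11. Irgm1 was the only gene of 29 judged there past the rule, at 63.5 CPM in hKO and 31.1 CPM in WT; 1.95% of all genes of these cells were past it upward and 0.835% downward.

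The GTPases did not share the direction of the IFIT and OAS genes. In macrophage-like cells the 7 GTPase genes summed to 275 CPM in hKO and 243 CPM in WT, a log2 ratio of 0.18 (0.08 to 0.27), and the 8 IFIT and OAS genes to 250 CPM in hKO and 419 CPM in WT, -0.75 (-0.83 to -0.66). Within macrophage-like clusters 4, 10 and 15 the IFIT and OAS ratio was -0.63, -0.17 (-0.92 to 0.49) and -0.37, each smaller in size than the pooled value. The GTPase ratio in the same clusters was 0.14, 0.79 and 0.40. Monocyte-like cells, a single cluster in both libraries, gave 292 CPM in hKO and 237 CPM in WT for the GTPases, 0.30 (0.18 to 0.43), and 325 CPM in hKO and 437 CPM in WT for the IFIT and OAS genes, -0.43 (-0.53 to -0.33). These families were set side by side after their values were seen. In monocyte-like cells 2 of the 7 GTPase genes and 2 of the 8 IFIT and OAS genes had the level to be judged. None of these was past the rule.

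Single genes carried both directions in monocyte-like cells. Irgm1, an immunity-related GTPase that regulates other members of its family, was at 61.9 CPM in hKO and 43.4 CPM in WT, a log2 ratio of 0.51 (0.23 to 0.80). Gbp2 was at 74.4 CPM in hKO and 50.8 CPM in WT, a ratio of 0.55 (0.29 to 0.81). Oasl2 was at 77.2 CPM in hKO and 131 CPM in WT, a ratio of -0.77 (-0.96 to -0.57). All 7 GTPase genes lay above the all-gene median of the class, which was -0.10, and 1 of the 8 IFIT and OAS genes did.

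The gap between the families had the same sign in 8 of 11 classes, the exceptions being neutrophil-, plasmacytoid dendritic- and erythroid-like cells. Endothelial-like cells gave 461 CPM in hKO and 323 CPM in WT for the GTPases, a log2 ratio of 0.51 (0.42 to 0.61), and 287 CPM in hKO and 247 CPM in WT for the IFIT and OAS genes, 0.22 (0.10 to 0.33). Gbp4 was at 102 CPM in hKO and 59.3 CPM in WT endothelial-like cells, a ratio of 0.78. Within clusters with at least 50 cells in each library, the GTPase ratio was above the IFIT and OAS ratio in 14 of 19. It was so in 9 of 10 clusters of the macrophage-, monocyte-, endothelial- and conventional dendritic-like classes. The exception among these 10 was the mature dendritic-like cluster described below. It had 1.75 (1.24 to 2.29) for the IFIT and OAS genes and 0.79 (0.48 to 1.11) for the GTPases. In the gamma-delta T-like cluster, also described below, the order was the same, with 1.43 and 0.13. In the largest endothelial-like cluster the ratios were 0.30 for the GTPases and 0.070 for the IFIT and OAS genes, both below those of the class. The sum of all 38 genes in endothelial-like cells, 3784 CPM in hKO and 3494 CPM in WT with a log2 ratio of 0.11, was likewise -0.051 within that cluster.

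**Figure D4:**
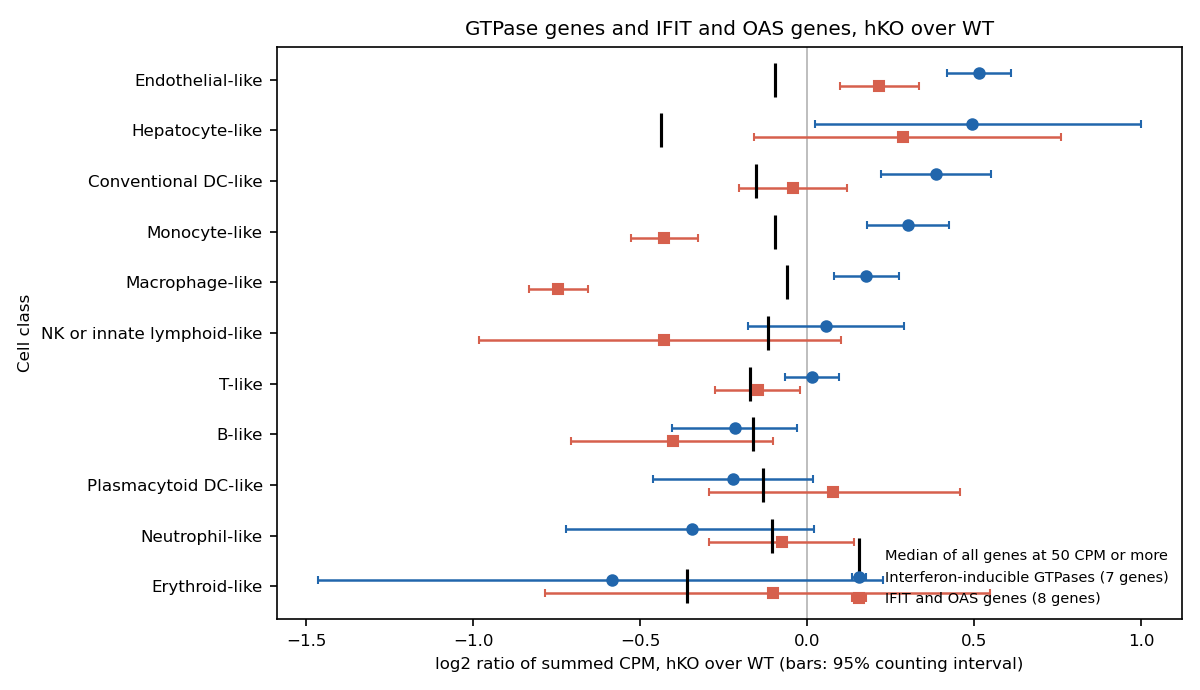
log2 ratio of summed CPM, hKO over WT (horizontal axis, bars are 95% counting intervals), of 7 GTPase genes (blue circles) and 8 IFIT and OAS genes (red squares) in 11 cell classes, with black marks at the median of all genes at 50 CPM or more in both libraries. In macrophage-like cells the families stand at 0.18 and -0.75, and in monocyte-like cells at 0.30 and -0.43.

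In the conventional dendritic-like class Isg15 was past the rule, at 112 CPM in hKO (502 UMIs) and 46.1 CPM in WT (164 UMIs), a log2 ratio of 1.28 (1.02 to 1.54). At a mitochondrial limit of 10% the ratio was 0.97, short of the rule. Of that class's 502 Isg15 UMIs in hKO, 259 came from 125 mature dendritic-like cells, the cluster with Ccr7, the receptor that guides dendritic cells to lymph nodes. Its Ccr7 level was 638 CPM in hKO and 967 CPM in WT, against at most 5.04 CPM in hKO and 2.28 CPM in WT in the type 1 and type 2 dendritic-like clusters.

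In mature dendritic-like cells the summed level was 3888 CPM in hKO (125 cells, 2634 UMIs) and 1972 CPM in WT (84 cells, 867 UMIs), a log2 ratio of 0.98 (0.87 to 1.09), beside an all-gene median of -0.059. Of 19 genes judged 10 were past the rule upward and 0 downward, where 6.05% of all genes of these cells were past it upward and 3.82% downward. The 10 were Isg15, Irf7, Oasl2, Rsad2, Irgm1, Ifitm3, Trim30a, Gbp4, Ifih1 and Parp14. A level in either library is enough to be judged. Among others, Isg15, Irf7 and Rsad2 had it in hKO only, so they entered the count through the library where they were high. With doublets kept 5 of 16 genes judged were past it: Gbp4, Ifih1, Oasl2, Parp14 and Rsad2 no longer were, and the ratio of Rsad2 was 0.92 in place of 2.14. This subset was singled out after its values were seen.

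Isg15 was at 382 CPM in hKO (259 UMIs) and 40.9 CPM in WT (18 UMIs), a log2 ratio of 3.22 (2.53 to 4.0). Irf7, the factor that amplifies type I interferon, was at 88.6 CPM in hKO (60 UMIs) and 15.9 CPM in WT (7 UMIs), a ratio of 2.48 (1.34 to 3.85). Rsad2 was at 50.2 CPM in hKO (34 UMIs) and 11.4 CPM in WT (5 UMIs). These counts are small, and the WT side rests on few molecules. Ifitm3, with more UMIs, was at 698 CPM in hKO (473 UMIs) and 237 CPM in WT (104 UMIs), a ratio of 1.56 (1.25 to 1.88). Trim30a was at 221 CPM in hKO and 84.2 CPM in WT, and Parp14, an ADP-ribosyltransferase, at 154 CPM in hKO and 75.1 CPM in WT. By contrast, Irf1 was at 272 CPM in hKO and 271 CPM in WT, and Samhd1 at 418 CPM in hKO and 382 CPM in WT.

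**Figure D5:**
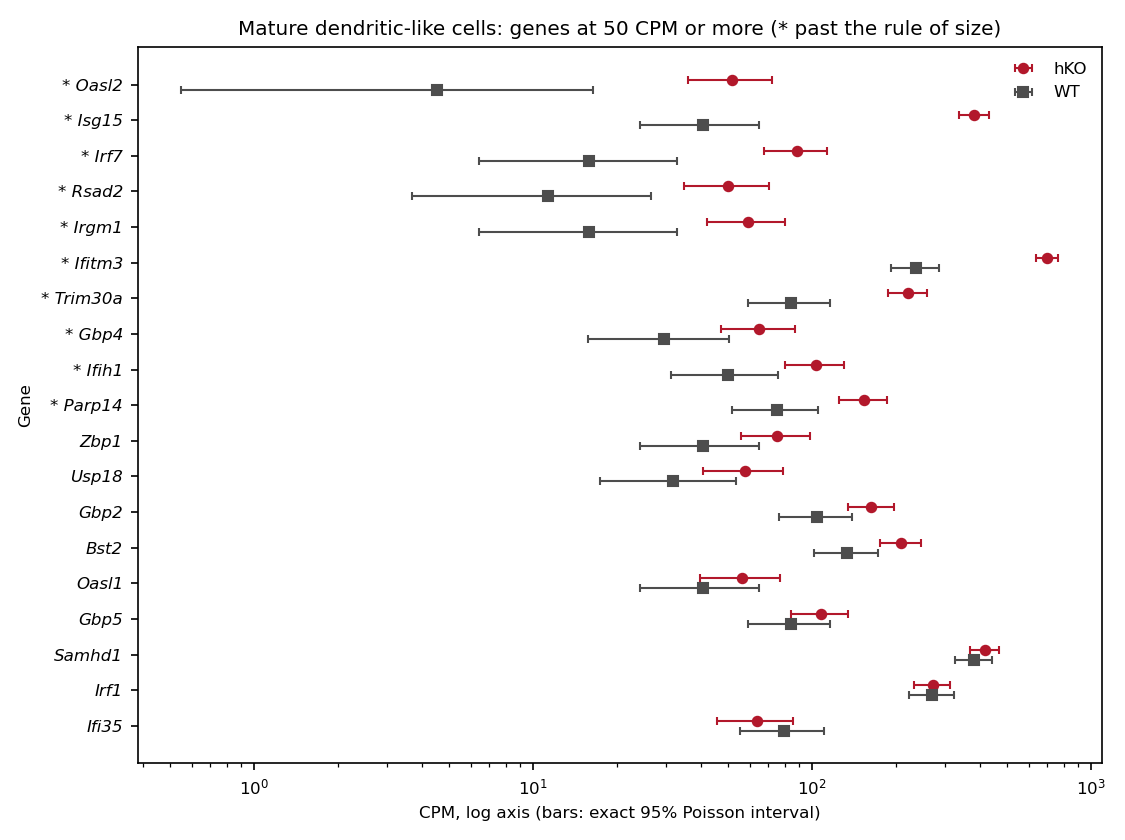
CPM on a log axis (bars are exact 95% Poisson intervals) of the 19 genes with at least 50 CPM in a library in mature dendritic-like cells, hKO as red circles and WT as grey squares, ordered by ratio; asterisks mark the 10 past the rule of size. Isg15 stands at 382 CPM in hKO and 40.9 CPM in WT, while Irf1 stands at 272 CPM in hKO and 271 CPM in WT.

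A few cells held much of this difference. The 13 hKO mature dendritic-like cells with the most UMIs of the set, the top 10% of the cells, held 57.9% of these UMIs and 81.1% of those of Isg15, and 9 of them had at least 5 Isg15 UMIs. In WT the corresponding 9 cells held 40.1% and no cell had 5 Isg15 UMIs. Thinned to 1000 UMIs, the median cell held 2 UMIs of the set in hKO and 2 in WT, and the mean was 3.60 in hKO and 1.72 in WT. Without these cells the summed level was 2048 CPM in hKO and 1466 CPM in WT, a log2 ratio of 0.48 (0.33 to 0.64). Then 3 of 11 genes judged (Isg15, Ifih1 and Gbp2) were past the rule. The cells left out were picked by the set's own UMIs, and the share of all genes past the rule without them was not computed. Without the deepest 10% of cells instead, a choice that does not use these genes, the ratio was 1.00 (0.86 to 1.13).

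The share of cells with Isg15 differed as well, within wide intervals. After thinning 16 of 113 hKO mature dendritic-like cells (14.2%, exact interval 8.32 to 21.97) and 3 of 69 WT cells (4.35%, 0.906 to 12.2) held an Isg15 UMI. The unthinned shares were 30.4% in hKO and 11.9% in WT, at medians of 5044 and 4795 UMIs, and 12 hKO and 15 WT cells were too shallow. The thinned share in B-like cells, where the gene is nearly absent, was 1.21% in hKO and 1.25% in WT. Hepatocyte RNA took 0.682% of UMIs in hKO and 0.218% in WT mature dendritic-like cells. Macrophage markers summed to 1057 CPM in hKO and 585 CPM in WT, and monocyte markers to 158 CPM in hKO and 61.4 CPM in WT, with 0 of 8 monocyte markers at 0 in hKO and 3 of 8 in WT. Their part in the result was not tested.

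The other dendritic-like clusters differed less. In type 1 conventional dendritic-like cells the set summed to 2034 CPM in hKO and 2254 CPM in WT, a log2 ratio of -0.15, and 1 gene of 12, Isg15, was past the rule at 58.6 CPM in hKO and 23.8 CPM in WT, where 3.46% of all genes were past it upward and 0.989% downward. Neutrophil markers summed to 358 CPM in hKO and 14.05 CPM in WT type 1 cells, with 1 of 6 markers at 0 in hKO and 3 of 6 in WT, and their part in this value was not tested. In type 2 cells the sums were 4210 CPM in hKO and 3945 CPM in WT, with 0 of 16 genes past the rule, beside 3.68% of all genes upward and 0.622% downward. Mean set UMIs per thinned cell were 2.21 in hKO and 2.05 in WT type 1 cells, and 3.97 in hKO and 3.96 in WT type 2 cells.

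Gamma-delta T-like cells, a T cell type of barrier tissues and liver, were the other lymphoid or myeloid subset with more than 1 gene past the rule. Their 340 hKO and 98 WT cells summed to 2245 CPM in hKO and 1887 CPM in WT, a log2 ratio of 0.25 (0.15 to 0.36). Ifitm3 was at 239 CPM in hKO and 107 CPM in WT, Parp14 at 139 CPM in hKO and 63.0 CPM in WT, and Zbp1, a sensor of left-handed nucleic acid that triggers cell death, at 56.6 CPM in hKO and 25.2 CPM in WT. These 3 of 15 genes stand beside 6.91% of all genes of the subset past the rule upward and 4.09% downward. In CD8 T-like cells 0 of 12 genes were past it, beside 3.94% of all genes upward and 0.92% downward. These cells pool clusters that the libraries filled unequally. The summed ratio was -0.36 in cluster 7 (76 hKO and 1143 WT cells), 0.22 in cluster 8 (1126 and 70) and 0.029 in cluster 19 (237 and 131). In cluster 7 Ifit2 and Ifi35, of 14 genes judged, were past the rule downward, beside 2.21% of all genes (3.12% upward). Clusters 8 and 19 had 0, beside 3.36% and 3.14% of all genes upward and 4.32% and 2.15% downward. Of the endothelial-like subsets, the non-sinusoidal one (167 hKO and 65 WT cells) had 2 of 30 genes past the rule downward, beside 4.73% of all its genes (5.4% upward). They were Ifit3, at 32.6 CPM in hKO and 68.4 CPM in WT, and Ifi35, at 59.3 CPM in hKO and 131 CPM in WT. The sinusoidal subset had 0 of 21, beside 2.1% of all its genes upward and 1.33% downward.

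In plasmacytoid dendritic-like cells the lower sum in hKO came mostly from Bst2. Its log2 ratio was -0.55 (-0.60 to -0.51) on 12720 UMIs in hKO and 7113 UMIs in WT, and no gene of 10 judged was past the rule. Without Bst2 and Ifitm3 the sum was 1573 CPM in hKO and 1836 CPM in WT, a ratio of -0.22. Ifi35, a partner of Nmi in the innate response, was at 47.5 CPM in hKO and 84.1 CPM in WT in these cells, a ratio of -0.83. It was the member whose ratio was below 0 in all 11 classes, between -1.44 and -0.36, and its counting interval excluded 0 in 8 of them. The all-gene median was also below 0 in every class, from -0.44 to -0.062, and Ifi35 lay above that median in 0 of 11.

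Hepatocyte-like cells, the class the knockout targets, had 4 genes with the level to be judged, of which 3 were past the rule. Bst2 was at 598 CPM in hKO (2230 UMIs) and 149 CPM in WT (118 UMIs), a log2 ratio of 2.00 (1.74 to 2.28). Isg15 was at 60.9 CPM in hKO (227 UMIs) and 159 CPM in WT (126 UMIs), a ratio of -1.39, and Ifi35 at 33.27 CPM in hKO (124 UMIs) and 73.4 CPM in WT (58 UMIs), a ratio of -1.14. At a mitochondrial limit of 10% the Isg15 ratio turned round to 0.78 and that of Ifi35 was -0.27, and with doublets kept they were 0.029 and -0.91. With 53.1% of all genes of the class past the same rule, these counts say little about the set. The class held 1124 hKO cells with a median of 1506.5 UMIs, mostly in cluster 9, and 354 WT cells with a median of 1296.5 UMIs, mostly in cluster 22.

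Within the hKO library the values for hepatocyte-like cells moved with the cluster. Bst2 was at 754 CPM in cluster 9 and 484 CPM in cluster 21, and Isg15 at 26.1 CPM in cluster 9 and 86.3 CPM in cluster 21. In WT, Bst2 was at 133 CPM and Isg15 at 178 CPM in cluster 22. Bst2 was thus higher in each of these hKO clusters than in this WT cluster and in the smaller WT clusters 34 (272 CPM) and 21 (176 CPM), while Isg15 depended on the cluster in both libraries. It was at 97.8 CPM in WT cluster 21 (28 cells, 5 UMIs) and 25.95 CPM in WT cluster 34. WT cluster 26 (120 cells, median 21715.5 UMIs) also had raised hepatocyte markers. It stayed unnamed and outside the class, because its leading genes held more markers of other types. It had Bst2 at 172 CPM, Isg15 at 31.0 CPM and Ifi35 at 58.3 CPM, so the WT class values above leave these deep cells out. The WT level of Bst2 in hepatocyte-like cells was under 10% of that in WT plasmacytoid dendritic-like cells (3479 CPM), and the part of free RNA in it was not tested.

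In erythroid-like cells Isg15, with 90 UMIs in hKO and 539 in WT, had a log2 ratio of -1.50 (-1.84 to -1.17), and Samhd1, at 44.0 CPM in hKO (23 UMIs) and 104 CPM in WT (115 UMIs), -1.24. Samhd1 was short of the rule with doublets kept (-0.18) and with median-ratio scaling (-0.88). Isg15 and Samhd1 were 2 of 6 genes judged, in a class where 53.5% of all genes were past the rule. Isg20 was close to it at -0.98. The class held 161 hKO and 268 WT cells, and hepatocyte RNA took 1.48% of UMIs in hKO and 0.256% in WT. A lower level per class cannot be told apart from another mix of cells in it.

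The sums of the remaining classes differed by less. They were 2131 CPM in hKO and 2154 CPM in WT T-like cells (log2 ratio -0.015), 1411 CPM in hKO and 1441 CPM in WT NK- or innate lymphoid-like cells (-0.031), and 3154 CPM in hKO and 3634 CPM in WT neutrophil-like cells (-0.20). No gene of the set was past the rule in these, in B-, endothelial- or monocyte-like cells. Irf1 in neutrophil-like cells, at 106 CPM in hKO (72 UMIs) and 208 CPM in WT (231 UMIs), lay just short of it with -0.97 (-1.38 to -0.59). Irf7 in endothelial-like cells, at 61.8 CPM in hKO (173 UMIs) and 31.3 CPM in WT (271 UMIs), lay just short of it upward with 0.98 (0.70 to 1.26).

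The interferons themselves were hardly seen. The 13 listed ligands other than Ifng had 23 UMIs in hKO and 12 in WT over all 11 classes. Of these 16 in hKO and 8 in WT were of Ifnb1, a type I interferon, and 13 in hKO and 6 in WT of all 13 ligands were in monocyte-like cells. Plasmacytoid dendritic-like cells, a known main source of type I interferon, held 6 in hKO and 1 in WT. A sampled transcript missed at this depth is not shown to be absent. Ifng had 376 UMIs in hKO (44.2 CPM) and 391 in WT (63.9 CPM) T-like cells, a log2 ratio of -0.53 (-0.74 to -0.32), and 62 UMIs in hKO (80.9 CPM) and 115 in WT (67.8 CPM) NK- or innate lymphoid-like cells, 0.25 (-0.22 to 0.71).

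Ifngr1, a chain of the interferon gamma receptor, had a negative ratio in 11 of 11 classes, and in the 9 with 50 CPM in a library it ran from -1.17 to -0.31 with an interval below 0 in all 9; only the erythroid-like value was past the rule. In monocyte-like cells it was at 354 CPM in hKO and 548 CPM in WT, a log2 ratio of -0.63. Ifngr2, the other chain, did not share this: its ratio was positive in 5 of 11 classes, ran from -0.32 to 0.49 in the 7 with the level, and had an interval below 0 in 2 of these. Ifnar2, of the type I receptor, was highest in plasmacytoid dendritic-like cells at 457 CPM in hKO and 614 CPM in WT. Its ratio was below 0 in 10 of 11 classes, with an interval below 0 in 7. For Ifngr1 and Ifnar2 these counts stand beside an all-gene median that was itself below 0 in every class, from -0.44 to -0.062. The share of all genes below 0 in as many classes is not given here, so the counts alone say little about the receptors.

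Further interferon-stimulated genes, from a list of 78 of which 76 had a feature, held genes past the rule in several classes at once. Ifi27l2a, a relative of Ifi27, was past the rule upward in 7 of 11 classes, at 1377 CPM in hKO and 677 CPM in WT monocyte-like cells and at 509 CPM in hKO and 216 CPM in WT T-like cells. Cxcl9, a chemokine that draws T cells and a classic target of interferon gamma, had a positive ratio in 11 of 11 classes. In 7 of these it had the level to be judged. It was past the rule in 4, among them macrophage-like cells at 227 CPM in hKO and 59.7 CPM in WT. Cxcl10, its relative, was past the rule in 3 of 4 classes judged, among them endothelial-like cells at 75.7 CPM in hKO and 25.6 CPM in WT. In those 4 its ratio ran from -0.31 to 2.09, and over all 11 classes it was negative in 3.

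By class, the further list had 2 of 44 judged genes past the rule upward and 0 downward in macrophage-like cells, beside 2.78% of all genes upward; besides Cxcl9 it was Iigp1, a GTPase, at 98.9 CPM in hKO and 45.4 CPM in WT. It had 3 of 36 upward and 2 downward in endothelial-like cells, beside 3.75% and 1.88% of all genes. In T-like cells it was 4 of 39 upward, beside 4.1%, and in monocyte-like cells 1 of 45 upward, beside 3.13%, with 0 downward in both. In mature dendritic-like cells 12 of 46 were past it upward, beside 6.05% of all genes, and 1, Ube2l6, downward, beside 3.82%. Those upward included Ifi27l2a at 449 CPM in hKO and 79.6 CPM in WT and Cxcl9 at 806 CPM in hKO and 282 CPM in WT. Ifitm1 was at 81.2 CPM in hKO (55 UMIs) and 6.82 CPM in WT (3 UMIs). Among others, Ifitm1, Cxcl10 and Ifi47 had 50 CPM in hKO only, so they entered the count through the library where they were high. Gamma-delta T-like cells had 9 of 41 upward and 0 downward, beside 6.91% and 4.09% of all genes. Non-sinusoidal endothelial-like cells had 4 of 42 upward and 1 downward, beside 5.4% and 4.73%. Upward it was 2 of 36 in type 1 and 2 of 37 in type 2 dendritic-like cells, beside 3.46% and 3.68%. In Kupffer-like cells it was 0 of 44, beside 1.95%. In hepatocyte-like cells 4 of 17 were past it each way, beside 20.4% of all genes upward and 32.7% downward, which says little about the list. Among them were Ifi27 at 110 CPM in hKO and 918 CPM in WT and Lgals3bp at 128 CPM in hKO and 15.2 CPM in WT.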

How the data were processed

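Single cells of pooled liver tumors were profiled by 10x Genomics 3' RNA-seq in 1 hKO and 1 WT library. The deposited matrices hold UMI counts per gene and barcode, written by Cell Ranger 7.1.0 per the file headers, with a minimum of 500 UMIs a barcode; the deposited gene and barcode names carry no measurement. The submitters' processing notes name Cell Ranger, R 3.0, Seurat 3 and mm9; no coordinate of the matrices was used. Barcodes over 25% mitochondrial UMIs (6864 in hKO, 2645 in WT) or under 200 genes were left out, and 1049 hKO and 394 WT doublets were removed with Scrublet scores (in hKO the caller marked 0.0262% of cells, so the expected rate was used). Cells were clustered with Scanpy 1.11.5 (2000 variable genes without interferon genes, 30 components, 15 neighbors, leidenalg 0.10.2 at resolution 1.0) and named by markers; 477 hKO and 434 WT cells stayed unnamed. Class levels are the summed UMIs of a gene in a library per 1000000 UMIs of the class (CPM); a UMI counts a molecule whatever the transcript length.

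Ratios carry exact conditional binomial 95% intervals and shares exact Clopper-Pearson ones (SciPy 1.17.1), for counting error only, since cells are not replicates. All genes were judged by the same rule of size. The ratio, its interval and the rule were run on simulated Poisson counts drawn around the WT macrophage-like sums. Such counts hold no spread between cells or libraries, and clustering, naming, thinning and doublet removal were not tested. Every gene of the set past the rule is named, with the member of most UMIs in each role group; from the other pathway lists at most 4 per list and class are named. The members and lists were chosen with earlier results of these data known, and the antiviral set, the comparison of families and the mature dendritic-like subset were singled out after values were seen. Other tools were Python 3.11.15, NumPy 2.4.6, pandas 2.3.3, scikit-learn 1.9.0, python-igraph 0.11.9 and matplotlib 3.10.9.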

Additional observations from a re-analysis of the deposited data

How the results depend on the processing

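No paired analysis was possible because each group is 1 library. Of 107 recomputed class sums and counts, 57 stayed within the counting interval (or, for counts, within 1.5 times). Of the others 49 moved further and 1 turned round. Only a sum whose main interval excluded 0 could be labeled as turned round. Monocyte-, T- and NK- or innate lymphoid-like sums had intervals that held 0, so their changes of sign are not in that count. The NK- or innate lymphoid-like sum, for instance, went from -0.031 to 0.26 at the 10% mitochondrial limit. Of 154 recomputed values of single genes and of the family sums, 120 kept direction and call or stayed within the interval, 25 (all single genes) lost the call, 7 (all family sums) moved and 2 turned round. The sums below are log2 ratios of hKO over WT.

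With libraries scaled by the median ratio of all genes, the ratio was -0.043 in B-like, 0.24 in conventional dendritic-like, 0.21 in endothelial-like, -0.43 in erythroid-like, 0.55 in hepatocyte-like, -0.36 in macrophage-like, 0.10 in monocyte-like, 0.087 in NK- or innate lymphoid-like, -0.10 in neutrophil-like, -0.29 in plasmacytoid dendritic-like and 0.16 in T-like cells, with 4 pairs higher and 2 lower. With a mitochondrial limit of 10% it was -0.14 in B-like, 0.013 in conventional dendritic-like, 0.33 in hepatocyte-like, -0.32 in macrophage-like, 1.19 in mature dendritic-like, 0.050 in monocyte-like, 0.26 in NK- or innate lymphoid-like, -0.37 in plasmacytoid dendritic-like and 0.11 in T-like cells, with 5 pairs higher; erythroid-like cells were then too few. With doublets kept it was 0.019 in endothelial-like, -0.42 in erythroid-like, 0.21 in hepatocyte-like, -0.33 in macrophage-like, -0.043 in monocyte-like, 0.14 in NK- or innate lymphoid-like and 0.021 in T-like cells, and 5 mature dendritic-like genes were higher.

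With interferon genes in the clustering it was 0.076 in endothelial-like and -0.068 in monocyte-like cells. With cells weighted equally it was 0.047 in endothelial-like, -0.45 in macrophage-like, 0.034 in monocyte-like and -0.10 in neutrophil-like cells. At resolution 2.0 it was 0.049 in conventional dendritic-like cells. Without Ifitm3 and Bst2, chosen after seeing the data, it was -0.31 in B-like, 0.20 in endothelial-like, -0.33 in macrophage-like, -0.092 in monocyte-like, -0.22 in plasmacytoid dendritic-like and -0.053 in T-like cells, and it turned round to -0.47 in hepatocyte-like cells. At a minimum of 20 CPM 6 pairs were higher, 17 lower and 16 mature dendritic-like genes higher; at 100 CPM 3 pairs were lower and 5 mature dendritic-like genes higher.

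Isg15 in hepatocyte-like cells turned round to 0.78 at the 10% mitochondrial limit and 0.029 with doublets kept. Oas1a in macrophage-like cells missed the rule in all 6 of its alternatives, while Ifit3 in macrophage-like and Bst2 in hepatocyte-like cells passed it in all 6; within macrophage-like clusters Ifit3 passed it in none of 3. Over the 6 alternatives the IFIT and OAS ratio in macrophage-like cells ran from -0.80 to -0.65 and the GTPase ratio from 0.17 to 0.29. These alternatives pooled the clusters of the class. Within clusters 4, 10 and 15 of the main clustering the IFIT and OAS ratio was -0.63, -0.17 and -0.37. The cause of these shifts was not tested, and depth limits genes with few UMIs most.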

Other observations

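Cells outside the 11 classes also carried these genes. Stellate- or fibroblast-like cells, with 17 cells in hKO and 34 in WT, had 5231 CPM in hKO and 3880 CPM in WT summed over the 38 genes. Cholangiocyte-like cells had 2246 CPM in hKO (34 cells) and 1869 CPM in WT (80 cells). Mast- or basophil-like cells had 1353 CPM in hKO (28 cells) and 2169 CPM in WT (33 cells). Plasma-like cells had 903 CPM in hKO (4 cells) and 810 CPM in WT (74 cells), and unnamed cells 3027 CPM in hKO and 2431 CPM in WT. Barcodes over the mitochondrial limit had 1392 CPM in hKO and 1688 CPM in WT, or 2552 CPM in hKO and 3039 CPM in WT with mitochondrial UMIs left out of the total.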
